A study of Caenorhabditis elegans with 2 samples.

Results

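The genes described here are 10 genes of the DBL-1 pathway, a TGF-beta signal of Caenorhabditis elegans, and the measurements are binding sites of an eGFP-tagged CEH-28 protein near them. The genes are sma-2, sma-3, sma-4, sma-6, sma-9, sma-10, daf-4, lon-1, lon-2 and adt-2, taken by gene name from the Ensembl annotation of ce11. They are 10 of the 19973 nuclear protein-coding genes of that annotation. A binding site was counted as near a gene when it lay in the gene body or within 2000 bp of either side.

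DBL-1 is a BMP-like ligand, made mainly by neurons, that sets the body size of the worm and patterns the male tail. It acts through a type I receptor (SMA-6) and a type II receptor (DAF-4), and the signal is carried to the nucleus by the Smad proteins SMA-2, SMA-3 and SMA-4. Loss of the signal gives small animals, after which the sma genes are named, and excess signal gives long animals, after which the lon genes are named. CEH-28, an NK-2 class homeodomain transcription factor, is known from M4, a pharyngeal neuron where it activates the ligand gene dbl-1.

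Chromatin immunoprecipitation and sequencing had been done on whole L3 larvae, with the sexes pooled, of strain OP241. The strain carries the mutation unc-119(ed3) on chromosome III and the integrated transgene wgIs241, which holds the tagged ceh-28. There were 2 biological replicates of this 1 group, and replicates shared strain and stage. No group without the transgene was analysed here, and in whole larvae the cells that gave a peak are not known.

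A peak is an interval of enriched reads with 1 summit, and the signal of a peak is the authors' own value, which has no common scale between lists. The thresholded list held 3531 peaks, kept by the irreproducible discovery rate, a measure of how repeatably a peak ranks between compared lists. Being kept does not mean that a peak was strong in both replicates. Signal in this list ran from 65.9 to 5643 with a median of 109.5, and these were the 3531 strongest peaks of the pooled list. The relaxed lists, 1 for the replicates pooled and 1 for each replicate, held 30000 peaks each and reach down to weak enrichment. The strong peaks of a replicate are its own 3531 strongest, and 73.7% of thresholded peaks overlapped a strong peak of both replicates. Read counts are not given in the lists, so the depth is unknown.

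Sequences around 5 summits are shown, those of 4 of the 5 thresholded peaks in a promoter window of a pathway gene and that of lon-1, added after its sequence was read because it holds AATCGAT and AATCAAT, which are frequent in the whole list. A promoter window covered each annotated 5' end of a gene, with 1000 bp on its upstream side and 200 bp on its downstream side. Each sequence is 151 bases of the ce11 genome (Ensembl WBcel235) with the summit at position 76, written 5' to 3' on the strand of the pathway gene. Positions are chrIII:8749553-8749703 for sma-2, chrIII:6863965-6864115 for sma-3, chrIV:274260-274410 for sma-10, chrX:7585732-7585882 for adt-2 and chrIII:5479613-5479763 for lon-1, where sma-3 is read from the minus strand and the others from the plus strand. Capitals mark copies, on either strand, of AATCGAT or its variant AATCAAT, of CTGCGTC, of the sequence GCGCAGGG, of the repeat AGAGAGA or of its longer relative AAAGAGAG. Copies that overlap run together.
sma-2: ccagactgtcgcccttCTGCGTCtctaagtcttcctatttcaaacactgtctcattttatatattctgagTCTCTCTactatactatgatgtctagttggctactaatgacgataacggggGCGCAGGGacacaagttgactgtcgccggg
sma-3: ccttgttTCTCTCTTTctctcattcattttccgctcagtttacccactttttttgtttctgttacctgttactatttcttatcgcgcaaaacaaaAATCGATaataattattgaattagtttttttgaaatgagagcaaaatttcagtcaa
sma-10: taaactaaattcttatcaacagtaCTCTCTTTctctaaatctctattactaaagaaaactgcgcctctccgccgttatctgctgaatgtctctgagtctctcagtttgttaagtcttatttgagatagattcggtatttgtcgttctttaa
adt-2: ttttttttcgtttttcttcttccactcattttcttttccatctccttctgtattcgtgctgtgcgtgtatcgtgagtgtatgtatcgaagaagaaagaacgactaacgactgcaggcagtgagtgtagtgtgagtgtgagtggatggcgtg
lon-1: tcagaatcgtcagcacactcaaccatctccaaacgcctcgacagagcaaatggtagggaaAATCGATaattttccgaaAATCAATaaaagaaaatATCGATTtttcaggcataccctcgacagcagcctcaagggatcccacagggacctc

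The GC content of these stretches ran from 30.5% at sma-3 to 46.4% at sma-2. The adt-2 stretch holds none of the sequences searched. Copies of AATCGAT and AATCAAT, which are frequent under the summits of the whole list, stand in capitals only at sma-3 and lon-1 among these 5. At sma-2, sma-3 and sma-10 the capitals include runs of alternating T and C, read as A and G on the other strand.

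CEH-28 peaks lay near 6 of the 10 genes, namely sma-2, sma-3, sma-9, sma-10, lon-1 and adt-2. The remaining 4 genes, sma-4, sma-6, daf-4 and lon-2, had no thresholded summit within 2000 bp. Over all protein-coding genes 21.8% had a thresholded summit at this distance. Long genes have long windows, and the share was 16.3% for windows up to 6 kb, a class that holds none of the 10 genes. It was 23.9% for windows of over 6 to 10 kb, where 3 of 5 pathway genes had a summit, and 37.4% for longer windows, where 3 of 5 had one. Pathway genes in the middle class were sma-3, sma-4, sma-6, sma-10 and lon-1, and those in the long class were sma-2, sma-9, daf-4, lon-2 and adt-2.

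In a promoter window the count was 5 of 10, namely sma-2, sma-3, sma-9, sma-10 and adt-2, where 11.2% of all protein-coding genes had a thresholded summit. On chromosome X, 2 of the 3 pathway genes had such a summit (sma-9 and adt-2, but not lon-2), beside 10.4% of all genes on X. On the autosomes 3 of 7 had one, beside 11.4% of autosomal genes. A summit inside the gene body was found at 2 of 10, sma-9 and adt-2, beside 5.43% of all genes. Long gene bodies have more room for a summit, and this share was not split by gene length. The bodies of sma-9 and adt-2 are 13692 and 9208 bp long. A summit from 1 to 100 bp upstream of an annotated 5' end was found at 3 of 10, sma-2, sma-3 and sma-10, beside 1.76% of all genes, a distance chosen after the positions were seen. With replicate 1 alone, that is without replicate 2, its strong peaks gave 3 genes with a promoter summit (sma-3, sma-9 and sma-10), and with replicate 2 alone 4 genes, these and sma-2. No test was made on these counts, because the genes were chosen with results of these data known.

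**Figure D1:**
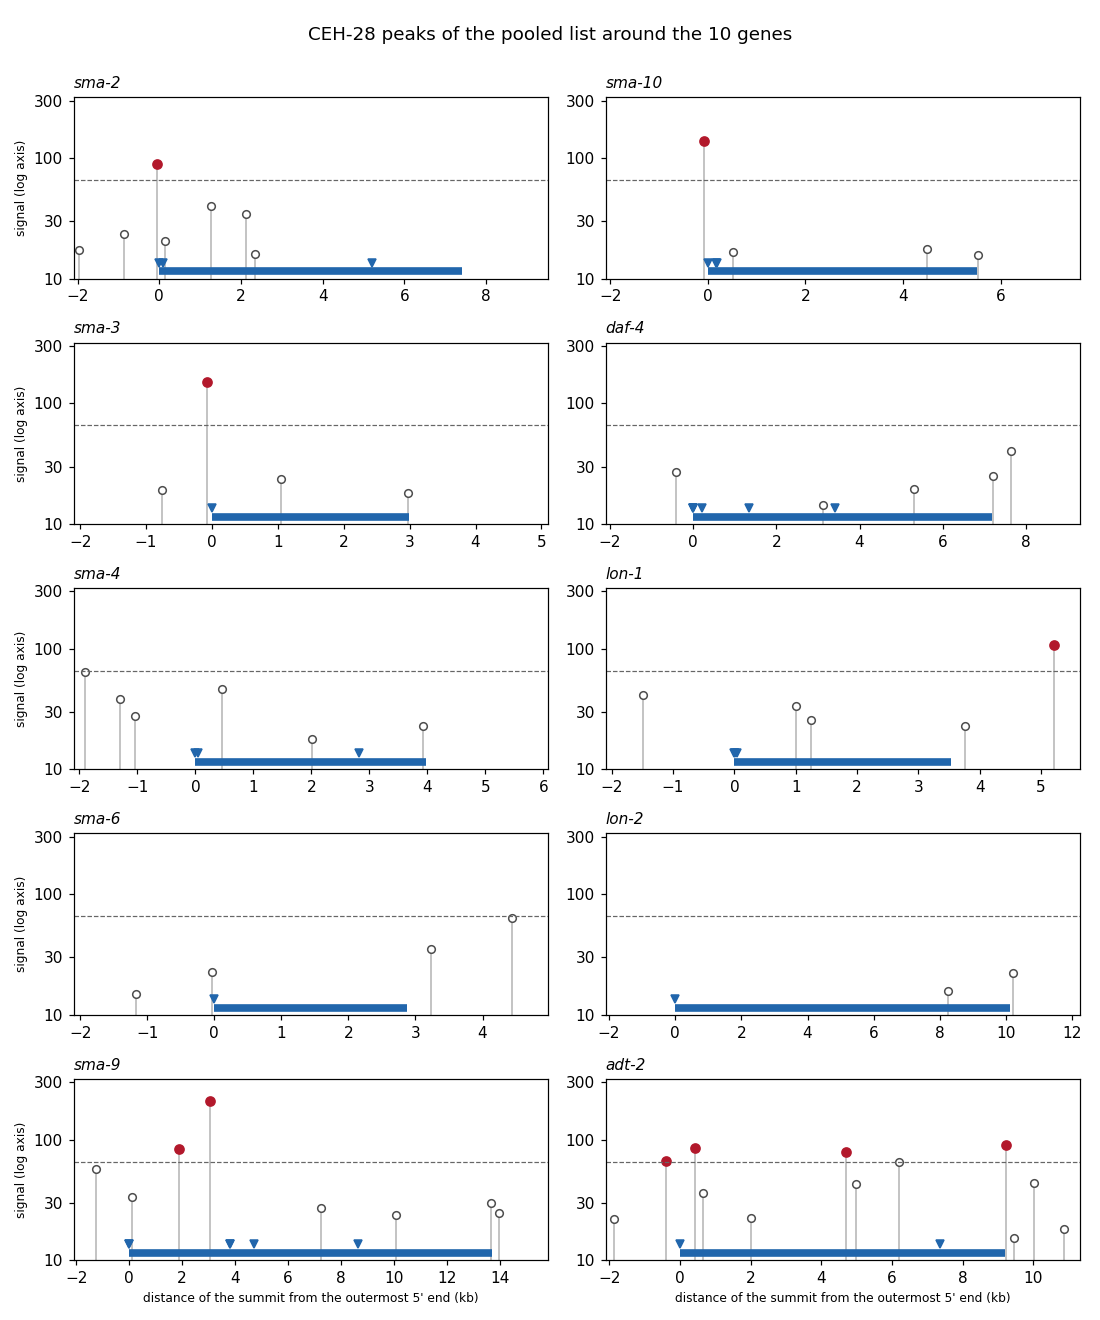
Maps of the 10 genes, 1 panel each, with the distance from the outermost 5' end in kb along the gene on the horizontal axis and the signal of pooled peaks on a log vertical axis. Filled red points are thresholded peaks, open points are pooled peaks below the threshold, the blue bar is the gene body, triangles are annotated 5' ends and the dashed line is the lowest thresholded signal, 65.9. Filled points stand close to the 5' end at sma-2, sma-3 and sma-10, and there are none at sma-4, sma-6, daf-4 and lon-2.

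The map of each gene shows where its peaks lay. Among the 10 thresholded peaks, 6 were on chromosome X, at only 2 genes: adt-2 had 4 peaks and sma-9 had 2. By location, 4 summits were in an intron of the pathway gene itself, 2 in an intron of a neighbouring gene and 4 in intergenic sequence. Their median signal was 89.3, and 3 of the 10 were above the median of the thresholded list. In both replicates 6 of the 10 were among the strong peaks, and 9 of the 10 carried the highest −log10 q-value of the list, 3.78, as 84.8% of all thresholded peaks did.

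Both receptor genes were without a thresholded peak. sma-6 (WBGene00004860, chromosome II from 6324484 to 6327355, plus strand) encodes the type I receptor, the kinase that phosphorylates the Smads. Its strongest pooled peak had a signal of 63.6 and ranked 3737 of 30000, just past the 3531 that were kept. That summit was 1563 bp beyond the 3' end of the gene and 119 bp from the microRNA gene mir-60. In replicate 1 the strongest peak of the window had a signal of 23.7 and rank 6764, and in replicate 2 it had a signal of 42.1 and rank 2504. Replicate 2 therefore placed it among its strong peaks and replicate 1 did not. At the 5' end of sma-6, 38 bp upstream, the pooled list held only a weak peak, with a signal of 22.5 and rank 16720.

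daf-4 (WBGene00000900, chromosome III from 5625135 to 5632323, plus strand) encodes the type II receptor, which the worm also uses in the TGF-beta pathway of dauer formation. Its strongest pooled peak had a signal of 40.1 and rank 7163, and lay 454 bp past the 3' end. The strongest replicate peaks ranked 4448 in replicate 1, with a signal of 31.4, and 7206 in replicate 2, with a signal of 21.6. Neither replicate had a strong peak in the window. On the 5' side the strongest pooled peak, 410 bp upstream, had a signal of 27.0 and rank 12804.

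sma-10 (WBGene00020649, chromosome IV from 274420 to 279943, plus strand) encodes a transmembrane protein with leucine-rich repeats and immunoglobulin domains that promotes signalling at the receptors. Its 1 peak, from 274135 to 274534 with the summit at 274335, stood 85 bp upstream of the first annotated 5' end in intergenic sequence. The signal was 138, rank 1291, at or above 63.5% of the thresholded list. Replicate 1 gave a signal of 82.1 and rank 1178, and replicate 2 a signal of 53.8 and rank 1728. Both replicates thus held it among their strong peaks, with summits 5 and 20 bp from that of the pooled list. The same summit was 936 bp upstream of srh-282, a gene of a chemoreceptor family on the opposite strand. The site therefore belongs to the promoter windows of both sma-10 and srh-282. It was also 342 bp from the microRNA gene mir-269.

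The 3 Smad genes differed. sma-3 (WBGene00004857, chromosome III from 6860974 to 6863968, minus strand) encodes a Smad that the receptors phosphorylate. Its peak, from 6863840 to 6864239 with the summit at 6864040, lay in intergenic sequence 72 bp upstream of the only annotated 5' end. Signal was 150.4, rank 1149, at or above 67.5% of the thresholded list. The peak ranked 1205 in replicate 1, with a signal of 81.0, and 1214 in replicate 2, with a signal of 67.4. These ranks were close to each other, and the summits lay 24 and 0 bp from the pooled summit. The gene cra-1 was also within 2000 bp.

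sma-2 (WBGene00004856, chromosome III from 8749680 to 8757089, plus strand) encodes the other receptor-regulated Smad. Its peak, from 8749428 to 8749827 with the summit at 8749628, was 52 bp upstream of the outermost 5' end, and weaker, with a signal of 88.8 and rank 2321. In replicate 1 the peak had a signal of 33.7 and rank 3990, outside the strong peaks, and in replicate 2 it had a signal of 58.3 and rank 1545. The peak at sma-2 was therefore strong in replicate 2 only. It also lay in an intron of ugtp-1 on the opposite strand and in a promoter window of that gene.

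sma-4 (WBGene00004858, chromosome III from 5816232 to 5820204, plus strand) encodes the co-Smad that joins the phosphorylated Smads. It had no thresholded peak, although its strongest pooled peak was close to the threshold, with a signal of 64.1 and rank 3693. That summit was 1907 bp upstream of the nearest annotated 5' end of sma-4, near the edge of the window. An exon of another gene, R12B2.7 on the same strand, lay between the summit and sma-4. The peak had a signal of 30.9 and rank 4550 in replicate 1 and a signal of 34.8 and rank 3374 in replicate 2, where alone it was among the strong peaks. Nearer the start, a peak in an intron 414 bp downstream of an annotated 5' end had a signal of 46.5 and rank 5793.

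sma-9 (WBGene00004862, chromosome X from 10769282 to 10782973, plus strand) encodes a zinc finger protein homologous to Drosophila Schnurri, which acts with Smads in the nucleus. The annotation gives it 16 transcripts with 6 different 5' ends, and both of its thresholded summits lay in introns. The stronger peak, from 10772208 to 10772338 with the summit at 10772324, had the highest signal of the 10, 209, at rank 741. It had a signal of 136 and rank 615 in replicate 1 and a signal of 97.3 and rank 713 in replicate 2. The ranks in all lists were close, and no other peak near a pathway gene ranked as high. This summit was 767 bp upstream of the 5' end where 10 of the 16 transcripts begin, and 3042 bp downstream of the outermost end, so it counts as a promoter site only for the internal ends. The weaker peak, with its summit at 10771154 and a signal of 84.4 at rank 2493, lay 1866 bp downstream of the nearest 5' end. Replicate 1 gave it a signal of 50.8 and rank 2243, and replicate 2 a signal of 41.0 and rank 2624, so both held it among their strong peaks.

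**Figure D2:**
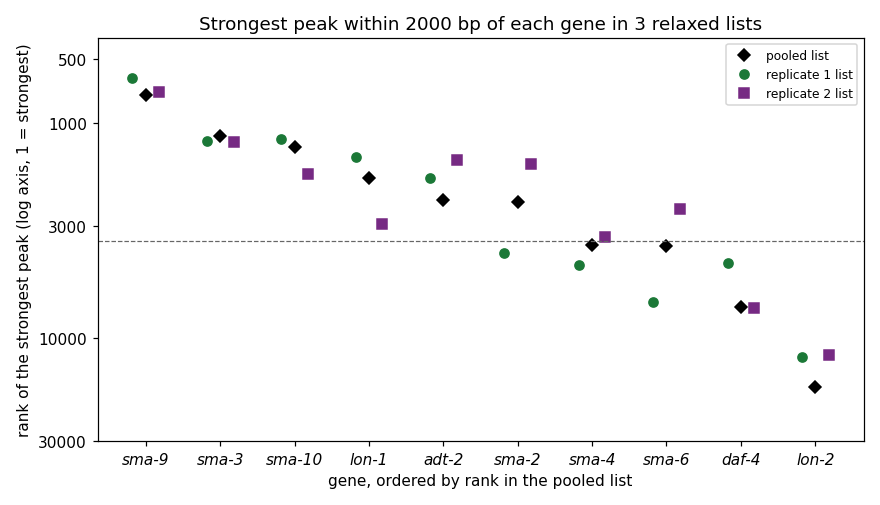
Rank of the strongest peak near each of the 10 genes in the pooled list, replicate 1 and replicate 2, on a log axis where rank 1 is the strongest peak of 30000. The strongest peak was chosen in each list by itself, the dashed line is rank 3531, and sma-9 stands first in all 3 lists (ranks 741, 615 and 713) and lon-2 last (16919, 12227 and 12010).

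The remaining pathway genes were lon-1, lon-2 and adt-2. lon-1 (WBGene00003055, chromosome III from 5474476 to 5478005, plus strand) encodes a secreted protein of the CRISP family that limits body size and whose expression the pathway lowers. Its peak, from 5479488 to 5479887 with the summit at 5479688, had a signal of 108.3 and rank 1797. Replicate 1 gave it a signal of 71.4 and rank 1429, and replicate 2 a signal of 38.0 and rank 2936, so it was among the strong peaks of both. The summit was 1683 bp past the 3' end of lon-1 in an intron of R02F2.5, the gene with the nearest 5' end, and in the promoter window of R02F2.6. In all, 5 protein-coding genes had this summit within 2000 bp, and nothing in the lists ties it to lon-1 rather than to a neighbour. On the 5' side of lon-1 the strongest pooled peak was 1488 bp upstream, with a signal of 41.7 and rank 6773.

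lon-2 (WBGene00003056, chromosome X from 4738964 to 4749083, minus strand) encodes a glypican that restrains DBL-1 signalling. Among the strongest peaks of each of the 10 genes that of lon-2 was the weakest, although its window of 14120 bp was the second longest after that of sma-9. The strongest pooled peak of lon-2 had a signal of 22.4 and rank 16919, and lay 101 bp past the 3' end of the gene. Replicate 1 gave a signal of 16.4 and rank 12227 in this window, and replicate 2 a signal of 15.7 and rank 12010. The other pooled peak, with a signal of 15.8 and rank 27055, was in an intron, and no pooled peak lay at the 5' end.

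adt-2 (WBGene00000083, chromosome X from 7586209 to 7595416, plus strand) encodes a secreted ADAMTS metalloprotease that affects body size. It had the most thresholded peaks, 4, spread from the promoter to the 3' end, all below the median signal of the list. The first along the gene, with its summit at 7585807, was 402 bp upstream of the 5' end and was the only one in its promoter window. It was also the weakest thresholded peak of the 10, with a signal of 66.2 and rank 3503, and a −log10 q-value of 3.15. It had a signal of 32.2 and rank 4247 in replicate 1 and a signal of 33.5 and rank 3600 in replicate 2. Neither replicate alone placed it among the strong peaks.

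The next adt-2 peak, with its summit at 7586637 in an intron 428 bp downstream of the 5' end, had a signal of 85.6 and rank 2447. It had rank 3771 and a signal of 35.1 in replicate 1 and rank 1922 and a signal of 50.3 in replicate 2. A peak farther into the gene, with its summit at 7590912, also in an intron, had a signal of 79.3 and rank 2737. There the replicates differed most among the 10 peaks, with a signal of 17.1 and rank 11537 in replicate 1 and a signal of 59.8 and rank 1479 in replicate 2. The peak at the end of the gene, with its summit at 7595425, 9 bp past the 3' end, had a signal of 89.9 and rank 2279. It was strong in both replicates, with a signal of 60.3 and rank 1786 in replicate 1 and a signal of 35.0 and rank 3342 in replicate 2. Its nearest 5' end was that of C44E12.1, not of adt-2.

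**Figure D3:**
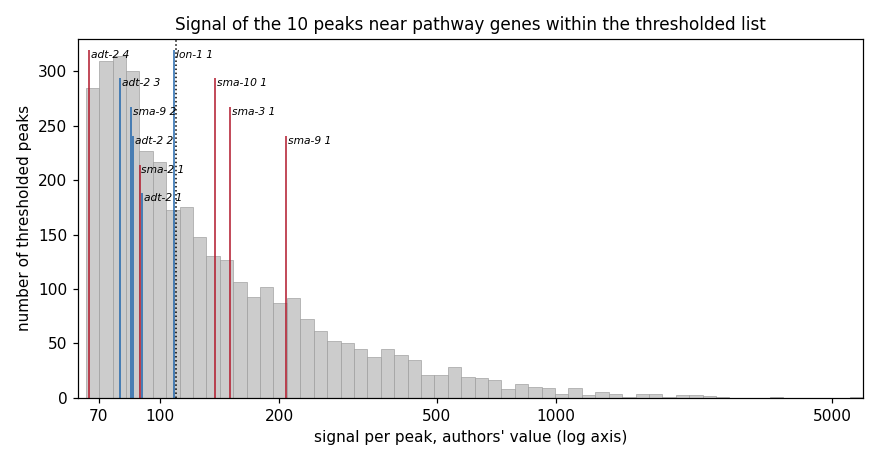
Number of thresholded peaks by signal on a log axis (grey bars, all 3531), with the 10 peaks near pathway genes as vertical lines labelled by gene and peak number. Red lines are summits in a promoter window of the pathway gene, blue lines are the others and the dotted line is the list median of 109.5, so that only sma-9 peak 1, sma-3 and sma-10 stand to the right of it. Peak numbers run from the strongest to the weakest peak of a gene.

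The threshold separated values that were close to each other. Just inside it was the adt-2 promoter peak with a signal of 66.2 at rank 3503, and just outside were a coding-exon peak of adt-2 with a signal of 65.8 at rank 3541, that of sma-4 with 64.1 and that of sma-6 with 63.6. With the strongest 5000 pooled peaks in place of the thresholded list, a limit chosen after the values were seen, sma-4 and sma-6 joined and 8 of 10 genes had a summit within 2000 bp, beside 28.2% of all protein-coding genes. This share was not split by window length, and it includes genes with windows up to 6 kb, a class that holds none of the 10. daf-4 and lon-2 were still without one.

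Pooled peaks were also counted without the threshold, so that these counts include the 10 thresholded peaks. The 10 windows held from 2 pooled peaks at lon-2 to 12 at adt-2, or 0.142 and 0.909 peaks per kb, with a median over the genes of 0.577 peaks per kb. The median protein-coding gene had 0.218 pooled peaks per kb, or 0.281 with windows of over 6 to 10 kb and 0.331 with longer windows. Set against genes of their own window class, 9 of the 10 were above the class median, all but lon-2. Counting pooled peaks below the threshold alone, which was added after the values were seen, the median over the 10 genes was 0.486 peaks per kb beside 0.192 for all protein-coding genes, and again all but lon-2 were above the median of their class. Below the threshold adt-2 held 8 peaks and sma-9 held 6. With all pooled peaks adt-2 had at least as many peaks per kb as 95.7% of its class, sma-4 as many as 90.8% of its own, and lon-2 as many as 24.6%. By the rank of the strongest pooled peak, 8 of the 10 were better than the median of their class, all but daf-4 and lon-2. A peak with a better rank was found in 8.15% of the class of sma-3, in 10.8% of that of sma-9 and in 79.4% of that of lon-2. Neighbouring genes share peaks, so windows of adjacent genes are not independent.

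**Figure D4:**
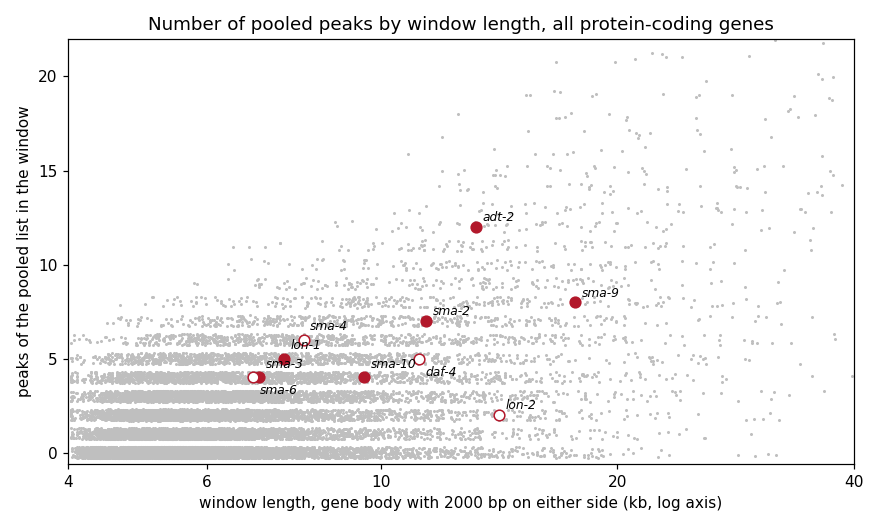
Number of pooled relaxed peaks in the gene body and 2000 bp of flank against the length of that window in kb, for protein-coding genes (grey points, spread vertically to reduce overlap) and the 10 pathway genes (named). The axes stop at 22 peaks and 40 kb, and adt-2 with 12 peaks stands highest among the 10 genes and lon-2 with 2 lowest.

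The sequence under the summits was compared with that of the whole list. AATCGAT or AATCAAT, on either strand and within 50 bp of the summit, was present in 2 of the 10 peaks, those of sma-3 and lon-1. The same sequences were present in 47.4% of all 3531 thresholded peaks and in 12.2% of windows of the same 101 bp centred 500 bp to either side. Within 200 bp of the summit 4 of the 10 peaks had a copy, beside 63.1% of all peaks and 32.7% of flanking windows of that size. At the summit 8 of these 10 peaks therefore lacked both sequences. With 10 peaks the count is small, and no test was made.

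The window of the printed sequences, 75 bp to each side, gave the same 2 peaks for AATCGAT or AATCAAT, beside 52.1% of all thresholded peaks and 43.9% of those in a promoter window. TCAAGTG and TTAAGTG, forms known for proteins of the NK-2 class, were in none of the 10 within this distance and in 1.22% and 1.08% of all peaks, and in 1.84% and 1.09% of the flanking windows. Within 200 bp TCAAGTG was in 1 of the 10, the adt-2 peak at 7586637, beside 3.85% of all peaks and 4.47% of flanks. CTGCGTC and GCGCAGGG were both in the sma-2 peak and, within 75 bp, in none of the others, beside 11.2% and 0.566% of all peaks. Within 200 bp CTGCGTC was also in the adt-2 peak at 7595425 and GCGCAGGG in that at 7590912, so each was in 2 of the 10, beside 16.6% and 0.878% of all peaks. AGAGAGA, a repeat chosen after the sequences were read, was in 5 of the 10 peaks, beside 13.7% of all peaks and 2.63% of flanking windows. With AAAGAGAG, which overlaps it, the count was 6 of 10, among them sma-2, sma-3, sma-10 and the adt-2 peak at 7590912, beside 14.9% of all peaks and 3.03% of flanks. A match is a stretch of letters and does not show that a protein binds it.

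Other genes of the pathway were read in the same way. Of 9 further DBL-1 pathway genes (dbl-1, crm-1, drag-1, unc-40, tsp-12, tsp-14, tsp-21, sup-17 and lon-3), 3 had a thresholded summit near them, and all 3 had one in a promoter window, beside 21.8% and 11.2% of all protein-coding genes. For windows of over 10 kb, the class of unc-40, the share near a gene was 37.4%. For those of over 6 to 10 kb, the class of tsp-21 and sup-17, it was 23.9%. Replicate ranks given for the further pathway genes are the best anywhere in the window of the gene. At sup-17, the ADAM10 metalloprotease gene, the peak had a signal of 159 and rank 1069, with best ranks of 1379 and 888 in replicates 1 and 2. At tsp-21, a tetraspanin gene, it had a signal of 115.8 and rank 1629, with best ranks of 2081 and 1374. unc-40, which encodes a netrin receptor of the neogenin family, had 2 thresholded peaks in a window of 15667 bp. The stronger had a signal of 113.8 and rank 1668, and the best replicate ranks in the window were 1682 and 1951. The ligand gene dbl-1 itself had no peak in the pooled list or in replicate 1, and in replicate 2 its best peak had rank 15570. Its window was 6284 bp, and 28.3% of genes with windows of over 6 to 10 kb had no peak in the pooled list.

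Of 8 genes of other TGF-beta signals (daf-7, daf-1, daf-3, daf-5, daf-8, daf-14, tig-2 and unc-129), 3 had a thresholded summit near them and 1 had it in a promoter window, beside the same 21.8% and 11.2% of all genes. The promoter count of 1 in 8 is close to the share of all genes. Of the 3 genes with a summit near them, daf-3 and daf-5 have windows of over 10 kb, where 37.4% of genes had one. The third, daf-14, is in the class of over 6 to 10 kb, where the share was 23.9%. The promoter peak was at daf-3, the co-Smad of the dauer pathway, with a signal of 172.3 and rank 968, and best ranks of 1046 and 964 in the replicates. daf-5, which encodes the Sno/Ski partner of DAF-3, had 4 peaks in a long window of 23089 bp, the strongest with a signal of 287 and rank 458, in an intron. At daf-14, a Smad gene of the same pathway, the peak had a signal of 172.6 and rank 964 and was also in an intron. The strongest peaks at these 3 dauer pathway genes had higher signal than those at sma-3 and sma-10, and at daf-5 higher than that at sma-9. The ligand gene daf-7 had no peak in any list, as 43.8% of genes with windows up to 6 kb had none in the pooled list. Of the other ligand genes, tig-2 had a pooled peak with a signal of 57.7 and rank 4253, and best replicate ranks of 7085 and 2947, and the only pooled peak of unc-129 ranked 27156.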

How the data were processed

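The data were ChIP-seq peak lists of CEH-28 tagged with eGFP, from L3 larvae taken whole, in 2 biological replicates of 1 group, with library fragments of 150 to 350 bp per the labels. The deposited lists were a relaxed list per replicate, a pooled relaxed list and a thresholded list for which the irreproducible discovery rate was used, per the records deposited with the files. Controls entered peak calling, and which caller and aligner were used is not given in the sources used here. Each peak carries a signal and a −log10 q-value as deposited by the authors, and signal served only to describe and rank peaks within a list. Read counts are missing from the lists, so depth is unknown and no interval was computed. All value columns could be matched to a replicate or to the pooled samples.

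Coordinates are on ce11, counted from 1, with genes from Ensembl release 115. Many worm transcripts are trans-spliced, so transcription can start upstream of an annotated 5' end. A replicate was said to hold a peak when 1 of its 3531 strongest peaks overlapped it by at least 1 bp. Summits were placed in gene bodies with 2000 bp of flank and in promoter windows, motifs were searched on both strands, and the counts for the 10 genes were set beside those of all 19973 protein-coding genes, with no test, since there is no comparison group. The sequence at the sma-9 promoter peak is not reported here. The genes, lists and motifs were chosen with earlier results of these data known. All 10 genes are named, with other pathway genes that have a thresholded summit near them, dbl-1, and genes whose promoter window holds a peak of the 10. Other genes, AGAGAGA, AAAGAGAG, the lon-1 sequence, the strongest 5000 peaks, the peaks below the threshold, motif shares within 200 bp and the distance of 100 bp were chosen after values were seen. Alternatives were each replicate alone, peaks above the median signal, and other windows, overlaps and assignments. Scripts ran under Python 3.11.15 and were checked on simulated data, with pandas 2.3.3, numpy 2.4.6, scipy 1.17.1 and, for plots, matplotlib 3.10.9.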

Additional observations from a re-analysis of the deposited data

How the results depend on the processing

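No paired analysis was possible because there is 1 group and no second group with the same replicate numbers. Of the 20 ranks of the 10 peaks in a single replicate 5 fell outside the 3531 strongest. Ranks by −log10 q-value say nothing, since 9 of the 10 peaks tie at the highest value. With thresholded peaks above the median signal alone, 3 genes had a summit near them and 3 in a promoter window, beside 11.7% and 5.67% of all genes. AATCGAT or AATCAAT was in 1 of 3 of these peaks, beside 54.7% of all peaks above the median. In both replicates there were 3 of 3, and the share of all such peaks is not given here. With the gene body alone 2 genes had a summit, beside 5.43% of all genes. A flank of 500 bp gave 5 genes, beside 14.4%, and a flank of 1000 bp also gave 5, beside 17.3%. Leaving out 1 replicate gave 5 to 8 genes near a summit, 3 to 4 genes with a promoter summit and 2 to 4 peaks with AATCGAT or AATCAAT. These were 2 of 6 peaks without replicate 2, beside 49.9% of all strong peaks of replicate 1, and 4 of 13 without replicate 1, beside 42.0% of those of replicate 2. Without replicate 2 the promoter peaks of sma-2 and adt-2 were lost, and without replicate 1 that of adt-2. Any overlap of a peak interval gave 6 genes near a peak, beside 22.5% of all genes, and 5 with a promoter peak, beside 12.2%. A promoter window of 500 bp upstream to 100 bp downstream gave 4 genes, beside 8.80% of all genes. With 2000 bp upstream the count was 5, beside 14.4%. It was 4 with the outermost 5' end only, beside 10.3%. With each summit assigned to the gene of the nearest 5' end, in place of a promoter window, 6 genes had one, beside 13.5%. The summit near lon-1 went to R02F2.5, so lon-1 did not join. This count therefore takes in a gene by a summit farther than 2000 bp from it. The strongest 5000 pooled peaks gave 8 genes near, beside 28.2% of all genes, and 5 in a promoter window, beside 14.8%. None of the shares of all genes under these settings was split by gene or window length. Counting overlap with any relaxed peak, 10 of 10 peaks were in both replicates, and the share of all thresholded peaks is not given here. Within 25 bp of the summit 1 of 10 had AATCGAT or AATCAAT, beside 35.8% of all thresholded peaks. The cause of these moves was not tested. Depth is unknown, so a missing peak is not shown to be an absent site.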
